A study of Mus musculus with 6 samples.

Results

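A group of 9 early-numbered mouse microRNAs, mmu-miR-690, mmu-miR-705, mmu-miR-706, mmu-miR-709, mmu-miR-711, mmu-miR-715, mmu-miR-762, mmu-miR-801 and mmu-miR-805, were followed across 6 arrays of embryoid bodies. They were chosen by name from an earlier look at the same arrays, where their probes stood out as bright, and they are 9 of the 334 mouse microRNA probes on the array. Brightness, rank and saturation therefore describe how the members were picked, and none of them was tested. Embryoid bodies are aggregates in which embryonic stem cells start to differentiate. They were collected on day 7 from cells of strain 129S7/SvEv Brd-Hprt b-m2 that carried human BRCA1. The gene was wild type in one group (WT) and held a missense change in the others, M1652I in MI and R1699Q in RQ, and each group had 2 arrays. Human BRCA1 was shared by all groups, and the labels do not say whether replicates came from separate cultures, so p-values may measure technical spread only. Per the labels, every array paired RNA of its group in Cy3 with RNA from wild-type embryoid bodies in Cy5, and dyes were never swapped.

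MicroRNAs are short RNAs that guide Argonaute proteins to messenger RNAs, mainly through the seed near their 5′ end. Entries of this range of numbers were added to the miRBase catalogue early, from cloned short RNAs, and several were later doubted as fragments of other RNAs. A probe reports any labelled RNA that pairs with it, so the values below are signals of probes and not counts of a processed microRNA.

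RefSeq held a mature sequence for 5 of the 9 members. They are shown because the seeds, in capitals (bases 2 to 8, 5′ to 3′), differ among all 5, so these members do not form a seed family.
mmu-miR-690: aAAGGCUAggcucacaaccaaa
mmu-miR-705: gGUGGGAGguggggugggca
mmu-miR-706: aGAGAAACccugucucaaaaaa
mmu-miR-711: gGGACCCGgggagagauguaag
mmu-miR-762: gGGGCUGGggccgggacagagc

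On the GRCm38.p6 build, mmu-miR-690 lies at chr16:28599940-28599961 on the minus strand, within the span of Fgf12. The mature mmu-miR-705 lies at chr6:85336341-85336360 on the minus strand, within Rab11fip5. The mature mmu-miR-706 lies at chr6:120034290-120034311 on the minus strand, within Wnk1. The mature mmu-miR-711 lies at chr9:108969970-108969991 on the plus strand, within Col7a1, a collagen gene. The mature mmu-miR-762 lies at chr7:127708534-127708555 on the plus strand, within Bcl7c. The gene of mmu-miR-709 lies within the span of Rfx1. Exons and introns were not looked up. The 5 probes of these members start with the exact reverse complement of the mature sequence.

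For the other 4 members the probe itself is shown, since it is the only sequence at hand. Capitals mark the 27 bases of the probe before the 33-base stem that all 334 probes share.
mmu-miR-709: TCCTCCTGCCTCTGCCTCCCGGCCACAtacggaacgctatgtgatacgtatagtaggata
mmu-miR-715: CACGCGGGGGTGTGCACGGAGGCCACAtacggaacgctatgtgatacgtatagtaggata
mmu-miR-801: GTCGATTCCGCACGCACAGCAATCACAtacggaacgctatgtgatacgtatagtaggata
mmu-miR-805: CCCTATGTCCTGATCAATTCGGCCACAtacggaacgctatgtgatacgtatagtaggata

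The GC content of the first 20 probe bases ranged from 35.0% for mmu-miR-706 to 80.0% for mmu-miR-762, with a median of 65.0% over the members. The median was 55.0% over the 35 other probes numbered in the same range and 45.0% over all 325 probes that are not members. Across the 334 probes, GC content and median net Cy3 had a Spearman rho of 0.21, and GC content and net Cy5 one of -0.10. The number of G in the target over the same bases (C in the probe) had a rho of 0.35 with Cy3 and 0.14 with Cy5. Its median was 8 of 20 over the members and 5 over the 325 probes that are not members. These are descriptions across probes of the same arrays, which share dye and hybridisation. No member was close to another probe: the smallest edit distance over those 20 bases was 7, between mmu-miR-805 and mmu-miR-203.

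The arrays gave 241 to 255 of the 334 probes well above background in Cy3 and 262 to 271 in Cy5. The RQ arrays were brighter in Cy3, with a median ratio to WT of 1.43 over the tested probes (all but 40 of the 334) against 1.05 for MI. Net Cy3 on negative control spots was 93.0 and 103 on the RQ arrays and 43.8 to 59.4 on the other 4. Stem cell markers on the array were well above background in Cy3 on both WT arrays for 7 of 7, but in Cy5 for 2 of 7, with median net signals of 7113 and 21.5. The liver marker mmu-miR-122a had a net signal of 304 in Cy3 and 6297 in Cy5 on the WT arrays. Blood markers had medians of 116 in Cy3 and 934 in Cy5, and muscle markers 192 and 2158. Neural markers had medians of 69.4 and 1456. In Cy3, 3 of 5 blood markers and all muscle, liver and neural markers were also well above background on both WT arrays. Over all 6 arrays, the muscle marker mmu-miR-206 went the other way, with medians of 1840.5 in Cy3 and 569 in Cy5. These medians pool the mutant arrays and are not set against the WT values above. Summed net Cy3 of the 3 muscle markers was 1160 and 1180 on the WT arrays and 1918 to 3245.5 on the mutant arrays. By these lists as a whole, the Cy5 channel went against its label. A ratio to Cy5 is therefore a ratio to that channel and not to wild-type embryoid bodies. The 2 slide rows split the WT arrays from the mutant arrays, so slide row and the WT-to-mutant difference cannot be told apart.

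All 9 members were well above background in both dyes on all 6 arrays, and all 9 passed the filter for testing. The members held the top 3 Cy3 ranks of the 334 probes and took 44.4% to 54.2% of the summed net Cy3 signal of an array. The 3 brightest, whose Cy3 signal is capped, made up 34.7% to 45.5% on their own. In Cy5 their share was 18.7% to 22.5%. Of the 35 other probes numbered in the same range, 16 were well above background in Cy3 on all 6 arrays and 14 on none. Over all 334 probes, 227 were so on all 6 arrays and 60 on none. The median net Cy3 of those 35 others was 66.4, against 16280 for the members, which were chosen as bright. The 4 brightest of those others were mmu-miR-712 at 5450, mmu-miR-714 at 4357, mmu-miR-770-3p at 3652 and mmu-miR-720 at 2961. The dimmest member, mmu-miR-801 at 832, sat between mmu-miR-127 at 849 and mmu-miR-383 at 830. The next probe below the top 3 was mmu-miR-494 at 25492. Those 3 lie at or near the scanner ceiling, so no order among them is read: mmu-miR-709 ranked 1 by net signal, and mmu-miR-762 ranked 1 by the processed signal of the scanner software.

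**Figure D1:**
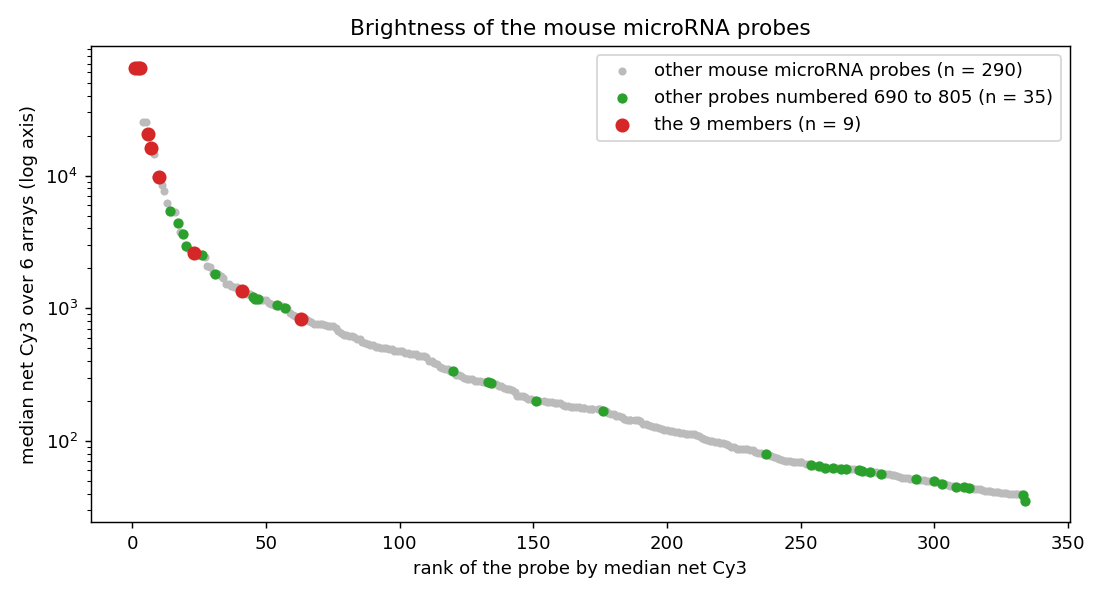
Median net Cy3 signal over 6 arrays (log axis) against the rank of each of the 334 mouse microRNA probes. The 9 members (red) span ranks 1 to 63, while the 35 other probes numbered in the same range (green) reach a rank of 14 at best.

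At the top, 3 members reached the ceiling of the scanner. The mean signal of a saturated Cy3 spot ends near 65240 after background subtraction, and all 58 saturated Cy3 spots of the microRNA probes belonged to mmu-miR-709, mmu-miR-690 and mmu-miR-762. All 24 spots of mmu-miR-709 were saturated, so its Cy3 signal has only a lower bound in every group. Its net Cy5 signal was 27006 and 23556 on the WT arrays, 23282 and 21980 on the MI arrays, and 16230 and 20555 on the RQ arrays. Both RQ arrays lay below the other 4 in that channel. Over all tested probes, the median ratio of net Cy5 in RQ to WT was 0.87.

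For mmu-miR-690, 7 of 8 Cy3 spots were saturated in WT, 5 of 8 in MI and 8 of 8 in RQ. Its net Cy5 signal was 42608 and 45206 on the WT arrays, 29156 and 32605 on the MI arrays, and 31156 and 41756 on the RQ arrays. The WT arrays were the highest in Cy5, and MI and RQ overlapped. For mmu-miR-762, 2 of 8 Cy3 spots were saturated in WT, 4 of 8 in MI and 8 of 8 in RQ. Its net Cy3 signal was 54317 and 64067 in WT, 58993 and 65241 in MI, and 65241 and 65243 in RQ. WT and MI overlapped, and the RQ arrays sat at the ceiling. No fold change of the Cy3 signal is given for these 3 members.

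**Figure D2:**
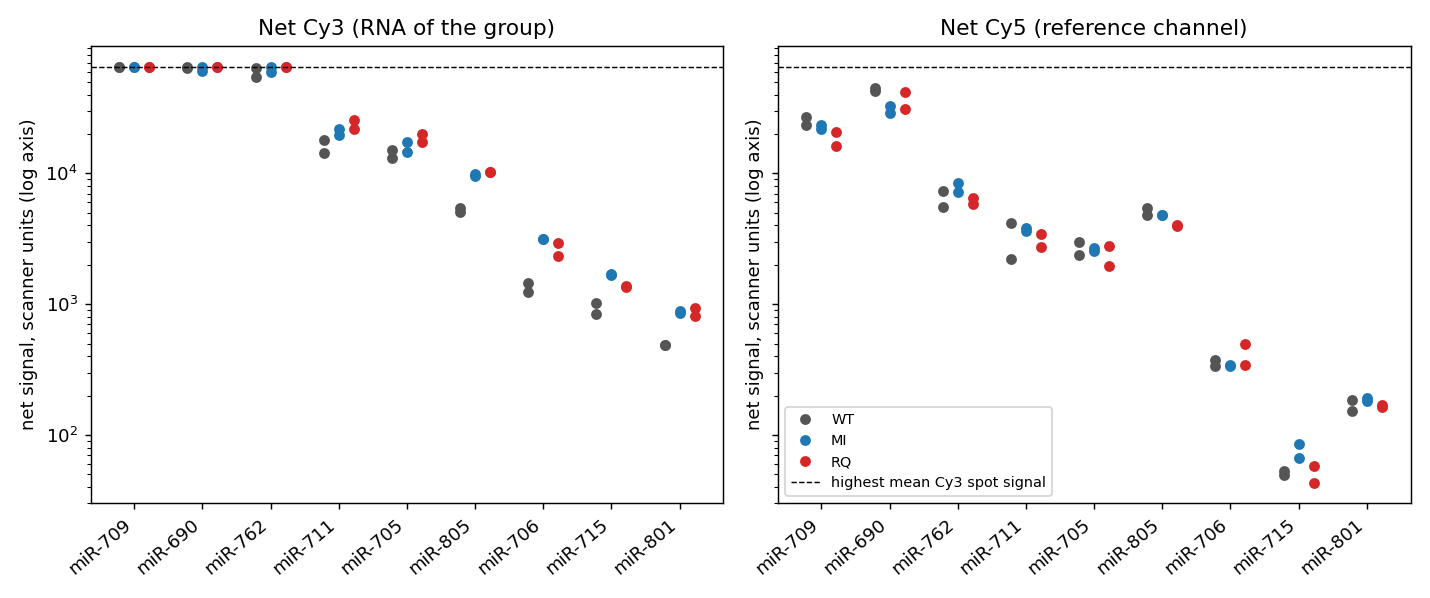
Net signal of the 9 members in Cy3 (left) and Cy5 (right) on a log axis, with 1 point per array (mean of 4 spots) coloured by group. The dashed line is the highest mean Cy3 signal of any member spot. In Cy3, mmu-miR-709, mmu-miR-690 and mmu-miR-762 lie at or near it. In Cy5 they lie below it, with mmu-miR-690 the closest at 29156 to 45206.

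Next in brightness were mmu-miR-711 and mmu-miR-705. The net Cy3 signal of mmu-miR-711 was 17843 and 14294 in WT, 19643 and 21818 in MI, and 21993 and 25370 in RQ. Both mutant groups lay above WT without overlap. For mmu-miR-705 it was 13018 and 15143 in WT, 14568 and 17418 in MI, and 17418 and 19995 in RQ. WT and MI overlapped, while both RQ arrays lay above WT.

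Next came mmu-miR-805, an entry that matches the mitochondrial genome. Its net Cy3 signal was 5471 and 5105 in WT, 9850 and 9581 in MI, and 10151 and 10190 in RQ, or 1.84 and 1.92 times the WT mean. Its net Cy5 signal was 5411 and 4760, 4830 and 4796, and 4034 and 3972 on the same arrays. Cy3 was thus higher in both mutants with replicates close together, and Cy5 was lowest in RQ. A control probe for the 3′ end of U6, a small nuclear RNA, moved the same way: its net Cy3 signal was 6440 and 8354 in WT, 9251 and 11544 in MI, and 13843 and 13046 in RQ. Over all tested probes, the median ratio of net Cy3 to WT was 1.05 in MI and 1.43 in RQ. The part of array brightness in the mmu-miR-805 values was not tested.

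The 3 dimmest members also had higher net Cy3 on the mutant arrays, and mmu-miR-706 had the largest ratios to the WT mean of the 6 members without saturated spots, at 2.33 in MI and 1.95 in RQ. For mmu-miR-706, whose sequence resembles part of the B1 repeat, it was 1247 and 1452 in WT, 3166 and 3129 in MI, and 2346 and 2914 in RQ. For mmu-miR-715 it was 835 and 1019 in WT, 1662 and 1714 in MI, and 1364 and 1344 in RQ. In both, the MI arrays were the highest and no groups overlapped. For mmu-miR-801, an entry later assigned to the small nuclear RNA U11, it was 483 and 488 in WT, 855 and 893 in MI, and 929 and 810 in RQ. The mutant arrays lay above WT and overlapped each other.

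Net Cy3 of both MI arrays lay above both WT arrays for 5 of 9 members, against 35.4% of all tested probes. For RQ this held for 7 of 9 members, against 64.6% of all tested probes, on arrays that were brighter as a whole. The counts include the 3 members with capped Cy3, for which the ceiling limits any separation. Of these, mmu-miR-709 and mmu-miR-690 were not above WT in either group, and mmu-miR-762 was above WT in RQ alone, at the ceiling. The counts are therefore not read as a result about the members.

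To set the brightness of the arrays aside, log2 Cy3 over Cy5 was normalised by loess within each array and compared with limma over all tested probes, with a call at a Benjamini-Hochberg adjusted p under 0.05. In MI against WT, 3 of the 9 members were higher and none lower, where 9.18% of all tested probes were called higher and 6.46% lower. At an unadjusted limma p under 0.05, 4 of 9 members were counted in MI against WT, 2 in RQ against WT and 3 in RQ against MI, beside 36.7%, 37.4% and 26.5% of all tested probes. In RQ against WT, 1 member was higher and none lower, where 7.48% of tested probes were called higher and 13.9% lower. In RQ against MI, 2 members were lower and none higher, where 7.82% of tested probes were called lower and 3.06% higher. The median change of the members was 0.26, -0.04 and -0.28 in these comparisons, and that of all tested probes 0.11, 0.03 and -0.10. The members' median was the value of mmu-miR-690 in MI against WT and of mmu-miR-709 in RQ against WT. Both have capped Cy3, so these medians are not read as changes of the RNA. The 3 comparisons share arrays.

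These counts depend on which spots shape the loess curve. In all, 4 weightings of the curve were run, and the one reported was taken with the counts of all 4 in view, because it follows how these data had been processed earlier; it also made the most calls in each comparison. The MI against WT calls of mmu-miR-706, mmu-miR-715 and mmu-miR-801 were made under all 4. The RQ against WT call of mmu-miR-801 and the RQ against MI call of mmu-miR-715 were made under the reported weighting alone. The RQ against MI call of mmu-miR-706 was made under 3 of the 4.

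Among the members, the change of mmu-miR-706 was the largest. Its log2 ratio was 1.84 and 2.54 on the WT arrays, 3.97 and 3.84 on the MI arrays, and 2.40 and 2.51 on the RQ arrays. MI lay above the other groups, and RQ lay within the WT range. The change in MI against WT was 1.72 (SE 0.23, limma adjusted p = 0.0067), and it was the second largest in size of all tested probes. In RQ against WT it was 0.27 (SE 0.23, limma adjusted p = 0.45). RQ lay below MI by -1.45 (SE 0.23, limma adjusted p = 0.024). With Cy3 alone, quantile normalised between arrays, the MI against WT difference was 0.95 and no longer called (limma adjusted p = 0.077), and the RQ against MI difference of -0.67 was not called either (limma adjusted p = 0.17).

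The log2 ratio of mmu-miR-715 was 2.62 and 3.10 in WT, 4.17 and 3.95 in MI, and 3.26 and 3.09 in RQ. Only the MI arrays stood clear of WT. The change in MI against WT was 1.20 (SE 0.19, limma adjusted p = 0.012), and RQ lay below MI by -0.88 (SE 0.19, limma adjusted p = 0.037). RQ against WT was 0.32 (limma adjusted p = 0.28). Its net Cy5 signal was 43.3 to 85.3, the lowest of the members, so its ratio rests on a dim reference. Before normalisation, net Cy3 over Cy5 of mmu-miR-715 was 15.7 and 20.6 in WT, 19.5 and 25.9 in MI, and 31.5 and 23.3 in RQ. On that scale MI overlapped both other groups, and RQ lay above WT. The MI against WT call was lost under 4 of 5 other scalings, where the change was 0.34 to 0.85, and kept at 1.21 with the members at weight 0. The RQ against MI call was made under none of those 5 scalings, where the difference was -0.87 to -0.29.

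For mmu-miR-801 the log2 ratio was 0.63 and 1.07 in WT, 2.35 and 2.06 in MI, and 1.76 and 1.51 in RQ. Both mutants lay above WT without overlap. The change was 1.35 in MI against WT (SE 0.20, limma adjusted p = 0.0098), and it was called under all 5 other scalings, at 0.71 to 1.36. In RQ against WT it was 0.78 (SE 0.20, limma adjusted p = 0.043), a call made under 5 of 19 other settings. The difference between RQ and MI was -0.57 (limma adjusted p = 0.13). Without the first MI array, none of the 3 MI against WT calls was made: the changes were 1.65 for mmu-miR-706, 1.09 for mmu-miR-715 and 1.21 for mmu-miR-801, with limma adjusted p = 0.061, 0.090 and 0.072.

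**Figure D3:**
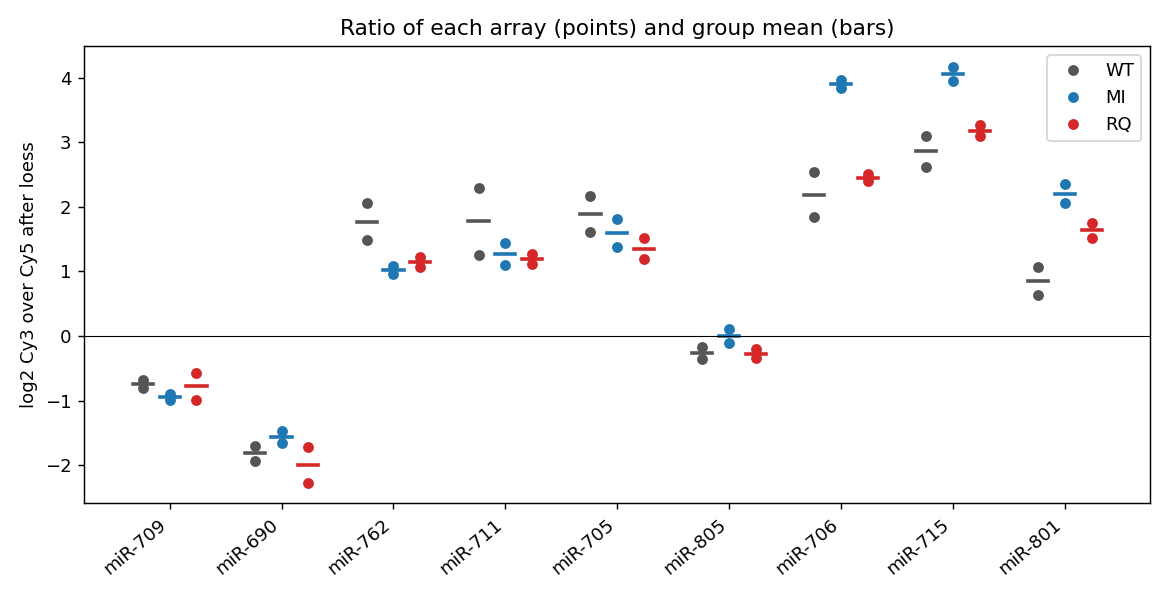
Log2 Cy3 over Cy5 after loess for the 9 members, with 1 point per array and a bar at each group mean (n = 2). The MI points of mmu-miR-706, mmu-miR-715 and mmu-miR-801 lie above the WT points, while the MI and WT points of mmu-miR-711 and mmu-miR-705 overlap.

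After loess mmu-miR-805 was called in no comparison. Its log2 ratio was -0.36 and -0.17 in WT, -0.11 and 0.11 in MI, and -0.34 and -0.21 in RQ. The change was 0.26 in MI against WT (SE 0.14, limma adjusted p = 0.21) and -0.01 in RQ against WT (SE 0.14, limma adjusted p = 0.94). With median centring in place of loess it was 1.01 (limma adjusted p = 0.0019) and 1.02 (limma adjusted p = 0.0011), and with Cy3 alone 0.68 (limma adjusted p = 0.021) and 0.45 (limma adjusted p = 0.035). With the processed signals it was 0.62 and 0.27, and with the members at weight 0 it was -0.62 and -2.70, none of them called. For this member the scaling decides the size, the sign and the call.

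For mmu-miR-711 and mmu-miR-705, loess gave ratios that were lower in the mutants, but uncalled. The change of mmu-miR-711 was -0.51 in MI (limma adjusted p = 0.30) and -0.59 in RQ (limma adjusted p = 0.26) against WT, and 0.13 and 0.29 with median centring. The change of mmu-miR-705 was -0.30 in MI (limma adjusted p = 0.41) and -0.54 in RQ (limma adjusted p = 0.18) against WT, and 0.25 and 0.34 with median centring. No direction is read for either.

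The 3 saturated members had average log2 intensities of 14.2 to 15.7, above every other microRNA probe on all 6 arrays, where the highest was 13.3 to 13.7. No other microRNA probe reaches that part of the reported loess curve, which was fitted on microRNA spots. A U6 control probe outside that curve was also that bright, with net Cy3 of 36442 to 65244. The Cy3 of the 3 members is capped, so the fitted values are given without being read as changes of the RNA. They were 0.26 and -0.17 for mmu-miR-690, -0.20 and -0.04 for mmu-miR-709, and -0.74 and -0.62 for mmu-miR-762 in MI and RQ against WT, none of them called. The smallest adjusted p was 0.059, for mmu-miR-762 in MI against WT with limma, and that change was called under 5 of 19 other settings.

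**Figure D4:**
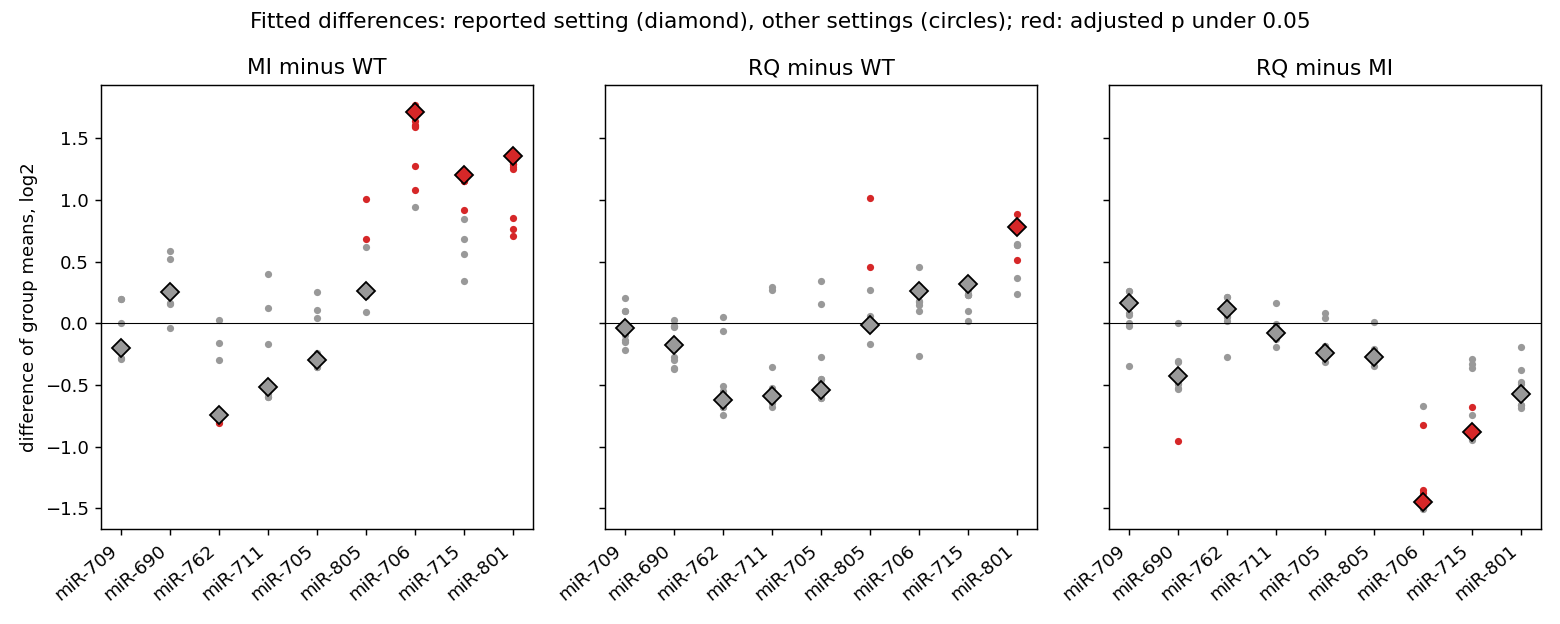
Difference of group means (log2) of each member in the 3 comparisons, for the reported setting (diamond) and 12 other settings (circles), with red for an adjusted p under 0.05. The curve fitted without the members and the fits without 1 array are not drawn; mmu-miR-801 in MI against WT is red in every setting drawn.

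Over the 6 arrays, the ratio of mmu-miR-706 followed that of mmu-miR-715 with r = 0.98, and mmu-miR-715 followed mmu-miR-801 with r = 0.94. The ratio of mmu-miR-705 followed that of mmu-miR-711 with r = 0.92. These describe 6 points in 3 groups that share slide and reference. Outside the members, the 3 most alike probes were mmu-miR-345 (r = 0.98), mmu-miR-485-5p (r = 0.97) and mmu-miR-338 (r = 0.97) for mmu-miR-706. For mmu-miR-715 they were mmu-miR-345 (r = 1.00), mmu-miR-223 (r = 0.98) and mmu-miR-543 (r = 0.97). For mmu-miR-801 they were mmu-miR-99a (r = 0.99), mmu-miR-196b (r = 0.98) and mmu-miR-543 (r = 0.98). For mmu-miR-805 they were mmu-miR-714 (r = 0.94), mmu-miR-214 (r = 0.90) and mmu-miR-370 (r = 0.87). The bright mmu-miR-705 was most like mmu-miR-668 (r = 0.94), mmu-miR-298 (r = 0.93) and mmu-miR-494 (r = 0.93), and mmu-miR-711 most like mmu-miR-494 (r = 0.91), mmu-miR-29b (r = 0.83) and mmu-miR-298 (r = 0.80). Both thus shared mmu-miR-494 and mmu-miR-298. The Cy3 of the saturated members is capped, so correlations of their ratios are not read as shared changes of the RNA. Among them, mmu-miR-690 was most like mmu-miR-192 (r = 0.87), mmu-miR-291a-5p and mmu-miR-470 (both r = 0.82). For mmu-miR-709 they were mmu-miR-669b (r = 0.85), mmu-miR-483 (r = 0.79) and mmu-miR-200c (r = 0.76), and for mmu-miR-762 mmu-miR-130b (r = 0.91), mmu-miR-339 (r = 0.89) and mmu-miR-299 (r = 0.85). Some of these probes were as dim in Cy3 as negative control spots (43.8 to 103). Median net Cy3 was 81.3 for mmu-miR-99a, 74.1 for mmu-miR-196b, 61.5 for mmu-miR-223, 87.1 for mmu-miR-338 and 72.9 for mmu-miR-668. It was 58.8 for mmu-miR-192, 69.8 for mmu-miR-470, 70.8 for mmu-miR-483 and 101 for mmu-miR-339, and 182 or more for the rest. Correlations with the dim probes are not read as shared changes of an RNA.

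The 21 tested probes among the 35 others numbered in the same range had median changes of 0.40, 0.10 and -0.21 in MI against WT, RQ against WT and RQ against MI. Of these, 1 was called higher in MI against WT, 2 higher in RQ against WT and 1 lower in RQ against MI.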

How the data were processed

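Two-colour arrays of 6 samples were analysed, 2 in each of the WT, MI and RQ groups. The deposited files hold spot intensity values of either dye, per the file headers from Agilent Feature Extraction 9.5.1.1, together with saturation and background flags and a log10 ratio of processed Cy5 over Cy3. The deposited value table equals minus that log10 ratio (largest difference 0). Each file lists 1932 features, of which 1336 are spots of 334 mouse microRNA probes, 4 spots a probe.

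The level printed here is the mean spot intensity minus the local background median, averaged over 4 spots with outlier spots kept; the processed signal had been planned for this and became the alternative, since the scanner ceiling shows only on the raw scale. Tests used limma 3.58.1 (R 4.3.3): normexp with an offset of 50, then loess within each array. The curve was fitted on mouse microRNA spots not marked as outliers. In all, 4 choices of spots for the curve were run, 3 of them after a first fit had been seen: this one, the same with outlier spots in the curve, and both again with the 15 further control probes. This one was taken with all 4 sets of counts in view, as it matches the earlier processing of these data; the other 3 are listed among the alternatives. Testing a probe required that more than 0.5 of its spots exceed background clearly in one dye or the other on 2 or more arrays, which left out 40 of the 334. All 6 arrays entered one fit (lmFit, eBayes) with 3 residual degrees of freedom and 2.99 prior ones; Benjamini-Hochberg adjustment ran over all tested probes. The fit was tested on simulated data. The number of arrays limits the precision.

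The members, marker lists and tests were chosen with earlier results of these data known. All 9 members are named; other probes are named as the 4 brightest others in the range of numbers from mmu-miR-690 to mmu-miR-805, the 3 most correlated probes of each member, and the nearest brighter and dimmer probes to the brightest and dimmest member. The U6 control probe, mmu-miR-203 and mmu-miR-206 were named after their values were seen. Sequences and positions of mature microRNAs are from RefSeq (GRCm38.p6); probe sequences are from the deposited files. Alternatives were other scalings, backgrounds, spot rules and filters, a replicate block, and leaving out each array.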

Additional observations from a re-analysis of the deposited data

How the results depend on the processing

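The calls of mmu-miR-706, mmu-miR-715 and mmu-miR-801 in MI against WT kept their direction under all 19 other settings and stayed past the threshold under 17, 14 and 18 of them. Of the other calls, mmu-miR-706 stayed past it in RQ against MI under 12 of 19, mmu-miR-715 in RQ against MI under 6, and mmu-miR-801 in RQ against WT under 5. The cause was not tested unless stated.

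The choice of spots for the loess curve was added after the data were seen, and all 4 curves were run before one was taken. Against 46, 63 and 32 calls over all probes as reported (MI against WT, RQ against WT, RQ against MI), outlier spots in the curve gave 41, 49 and 17. A curve on all spots of control type 0 (the 15 further control probes included) gave 41, 48 and 19, and the same with outlier spots 39, 44 and 10. Members called in RQ against WT fell from 1 to 0 under each of these 3. In RQ against MI they fell from 2 to 1, 1 and 0. In MI against WT, mmu-miR-762 was called lower under both curves with outlier spots, at -0.72 and -0.80 (limma adjusted p = 0.040 and 0.043).

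With the members at weight 0 the curve had to be extended beyond the other microRNA probes to the saturated members at 14.2 to 15.7. The highest average log2 intensity of those other probes was 13.3 to 13.7. The extended curve gave 23, 37 and 8 calls over all probes, and 0 members in RQ against WT and in RQ against MI. Under that curve, mmu-miR-711 changed by -1.45 in MI and -3.58 in RQ against WT. For mmu-miR-705 the changes were -1.43 and -3.56, and for mmu-miR-805 -0.62 and -2.70, none of them called. These members had average log2 intensities of 12.3 to 13.2, below the highest of the other probes. Members called in RQ against WT were 2 with median centring, 2 with offset 10, and 0 with the processed signals, with outlier spots kept, with no filter on dim probes and with the replicate block. In RQ against MI the members called were 1 with median centring, 0 with Cy3 alone, 1 with loess on the processed signals and 1 with outlier spots kept, which made 14 calls over all probes. Median centring split the calls over all probes into 17 higher and 21 lower in MI against WT, 47 and 20 in RQ against WT, and 19 and 12 in RQ against MI, against 27 and 19, 22 and 41, and 9 and 23 with loess. Cy3 alone gave 10 and 25, 19 and 45, and 15 and 21; the processed signals gave 9 and 23, 18 and 38, and 11 and 16; loess on the processed signals gave 32 and 23, 41 and 43, and 16 and 25. The median change over all probes in RQ against WT was -0.26 with the processed signals against 0.03 with loess.

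The replicate block gave 39, 59 and 38 calls over all probes, and 3, 0 and 2 members; the mmu-miR-801 call in RQ against WT was lost (limma adjusted p = 0.054) and no other member call changed. Same-numbered arrays had deviations that correlated at 0.18 (WT and MI), 0.12 (WT and RQ) and 0.04 (MI and RQ), so the numbers are not taken to pair the samples.

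Leaving out 1 array at a time gave 6 to 63 calls over all probes in MI against WT, 5 to 60 in RQ against WT and 0 to 48 in RQ against MI, with 0 to 5, 0 to 2 and 0 to 2 members called; the lone array of a group is then assumed to vary like the others. Changes that turned sign in these fits ranged from -1.03 to 0.010 for mmu-miR-711 in MI against WT. In RQ against WT they ranged from -0.45 to 0.10 for mmu-miR-690, -0.081 to 0.61 for mmu-miR-706, -0.24 to 0.17 for mmu-miR-709 and -0.10 to 0.079 for mmu-miR-805. In RQ against MI they ranged from -0.043 to 0.37 for mmu-miR-709 and -0.25 to 0.089 for mmu-miR-711.

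Uncalled changes turned sign as follows, beside the calls of mmu-miR-805 in the report. With Cy3 alone, MI against WT was -0.034 for mmu-miR-690, 0.11 for mmu-miR-705, 0.0031 for mmu-miR-709, 0.40 for mmu-miR-711 and 0.026 for mmu-miR-762. RQ against WT was 0.15 for mmu-miR-705, 0.28 for mmu-miR-711, 0.049 for mmu-miR-762 and 0.45 for mmu-miR-805, and RQ against MI 0.0026 for mmu-miR-690, 0.041 for mmu-miR-705 and -0.020 for mmu-miR-709. With median centring, MI against WT was 0.25 for mmu-miR-705, 0.20 for mmu-miR-709 and 0.13 for mmu-miR-711. RQ against WT was 0.031 for mmu-miR-690, 0.34 for mmu-miR-705, 0.20 for mmu-miR-709, 0.29 for mmu-miR-711 and 1.02 for mmu-miR-805, and RQ against MI 0.087 for mmu-miR-705, 0.17 for mmu-miR-711 and 0.013 for mmu-miR-805. With the processed signals, MI against WT was 0.043 for mmu-miR-705 and 0.20 for mmu-miR-709, RQ against WT -0.27 for mmu-miR-706 and 0.27 for mmu-miR-805, and RQ against MI -0.34 for mmu-miR-709 and -0.27 for mmu-miR-762. With the members at weight 0, MI against WT was -3.49 for mmu-miR-690 and -0.62 for mmu-miR-805, and RQ against MI -3.09 for mmu-miR-709 and -2.78 for mmu-miR-762. In RQ against WT, mmu-miR-709 was 0.10 with outlier spots kept or in the curve. There mmu-miR-805 was 0.018 with outlier spots kept, 0.059 with them in the curve, 0.0097 with the type 0 curve and outlier spots, 0.0039 with offset 10 and 0.0031 with the median over spots.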
